A study of Mus musculus with 2 samples.

Results

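The immediate early genes described here are 9 transcription regulators, Fos, Fosb, Jun, Junb, Egr1, Atf3, Nr4a1, Nr4a3 and Ier2. They were chosen by name as genes that answer tissue dissociation and injury, and all 9 were found by symbol among the 32285 genes of the count tables. The data were 2 droplet single-cell RNA libraries of the temporomandibular joint (TMJ), the jaw joint, of C57BL/6 mice of 8 to 10 weeks. Both groups had complete Freund's adjuvant (CFA), an oil emulsion that provokes inflammation, injected into the joint. One group was WT and the other Prox1 mutant, Prox1+/- heterozygotes by the study's text, and the mice of both groups were female. Such mice keep 1 functional copy of Prox1, the transcription factor that specifies lymphatic endothelium. The sources used here do not give the number of animals pooled for a library or the time from injection to harvest. Each condition was 1 library, so every difference between WT and mutant is a difference between 2 libraries, with intervals that cover counting error only, and no p-value is given. No uninjected joint and no undissociated tissue was part of the comparison, so a response to CFA and a response to the 37 °C digestion cannot be told apart in these levels.

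Immediate early genes are transcribed within minutes of a signal, from factors already present in the cell and with no need for new protein synthesis. Fos, Fosb, Jun and Junb encode subunits of AP-1, a dimer of a Fos-family and a Jun-family protein or of Jun-family proteins. Egr1 encodes a zinc finger activator, Atf3 a stress-induced member of the ATF and CREB family, Nr4a1 and Nr4a3 orphan nuclear receptors, and Ier2 a small nuclear protein. Growth factors, stretch, injury and cytokines raise them, and so does enzymatic digestion of a living tissue, which is why they are watched in single-cell data. Many of them are driven by serum response factor, or by CREB bound to the cyclic AMP response element.

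The bases just before the start sites of 4 of these genes are shown because Nr4a1 and Nr4a3 stood apart from Jun in the comparison of the libraries, and Fos supplied the most UMIs of the 9. The table of RefSeq promoters (build GRCm38.p6) held 7 of the 9 members, and Egr1 and Ier2 had no entry used here. Capitals mark the core site of the cyclic AMP response element, TGACG on the strand shown or its reverse complement CGTCA. Each sequence runs 5′ to 3′ on the gene's own strand and holds the 250 bases before the start.
Fos, chr12:85473640-85473889, plus strand: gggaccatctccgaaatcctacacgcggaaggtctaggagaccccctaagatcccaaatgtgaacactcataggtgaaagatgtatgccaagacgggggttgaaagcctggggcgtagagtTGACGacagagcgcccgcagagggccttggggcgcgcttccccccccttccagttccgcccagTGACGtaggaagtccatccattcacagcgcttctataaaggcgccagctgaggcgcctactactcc
Jun, chr4:95052223-95052472, minus strand: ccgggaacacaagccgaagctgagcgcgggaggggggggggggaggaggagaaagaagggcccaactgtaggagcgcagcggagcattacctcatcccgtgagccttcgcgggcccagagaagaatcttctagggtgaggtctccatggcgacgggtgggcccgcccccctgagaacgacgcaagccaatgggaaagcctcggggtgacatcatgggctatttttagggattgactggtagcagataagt
Nr4a1, chr15:101266596-101266845, plus strand: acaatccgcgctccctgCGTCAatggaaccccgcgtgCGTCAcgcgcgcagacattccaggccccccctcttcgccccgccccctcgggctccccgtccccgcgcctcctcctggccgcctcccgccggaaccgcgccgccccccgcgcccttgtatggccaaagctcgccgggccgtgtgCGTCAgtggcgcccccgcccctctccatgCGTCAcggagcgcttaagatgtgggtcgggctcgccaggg
Nr4a3, chr4:48045055-48045304, plus strand: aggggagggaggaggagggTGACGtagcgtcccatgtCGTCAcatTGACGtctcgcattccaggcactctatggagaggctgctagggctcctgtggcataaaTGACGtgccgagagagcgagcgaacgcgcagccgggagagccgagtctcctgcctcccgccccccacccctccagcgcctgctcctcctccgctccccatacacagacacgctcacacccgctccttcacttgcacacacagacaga
The core site was present in 6 of the 7 member promoters, Fos, Fosb, Junb, Atf3, Nr4a1 and Nr4a3, and absent from that of Jun. Of 27025 genes with a promoter in the table, 19.8% held it in the same window on either strand. Nr4a1 and Nr4a3 each held 4 copies and Fos held 2, at 129 and 66 bases before its start. Fosb, Junb and Atf3 held 1 copy each. How many of all genes held several copies was not counted, and a link between copies and the library ratios was not tested. The full element (TGACG followed by TCA, which contains the core site on both strands) was in 1.77% of genes, the AP-1 site (TGACTCA or TGAGTCA) in 5.16% and the CArG box, which serum response factor binds, in 1.62%. None of these 3 was found as an exact match in the 250-base window of the 7 members. Bases further from the start and sites that differ by a letter were not searched, so such sites may be present in these genes. A match in these bases is a description of the letters and not a binding measurement.

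The files held 5709 barcodes for WT and 7846 for the mutant, of which 4352 and 5757 had at least 500 genes and under 10% mitochondrial UMIs and were kept. A UMI is a molecular tag that marks 1 captured transcript end. The kept cells held 48366846 and 54330221 UMIs, with medians of 6997 and 4848 UMIs per cell, and the libraries shared 10 barcode sequences. Prox1, the mutated gene, was at 11.6 CPM, counts of a gene per 1000000 UMIs of the same cells, in WT from 563 UMIs and at 5.80 CPM in the mutant from 315. Both values are pooled over all kept cells, whose mix of types differed between the libraries, and the part of that mix was not tested. Clustering without the listed stress genes gave 43 clusters, and 35 of them were named by markers as 16 cell types. Unnamed clusters held 345 WT and 1700 mutant cells, so the share of cells left without a name was larger in the mutant. Among them, a cluster of 134 WT and 185 mutant cells had 7 of 8 endothelial markers raised. Another, of 98 and 129 cells, had 8 of 8. Both were left unnamed because they were shallow and no endothelial marker was among their leading genes, so endothelial-like values leave them out. Of the types, 9 had at least 100 cells in each library and are compared between them.

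In all kept cells the 9 genes together gave 304633 UMIs in WT, 0.63% of the library, and 271879 in the mutant, 0.50%. They were present in every cell type, in a range from the muscle-like cluster at the top to the erythroid-like cells at the bottom. The muscle-like cluster, led by Pax7, which marks the stem cells of skeletal muscle, had 28475 CPM of the 9 genes in its 90 WT cells and 25479 CPM in its 35 mutant cells. Erythroid-like cells had 580 CPM (95% Poisson interval 556 to 604) in 329 WT cells against 511 (496 to 526) in 796 mutant cells. Both libraries therefore had the same highest and the same lowest type. Haemoglobin UMIs count in the total of erythroid-like cells, and their part in that low level was not tested.

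Among the 9 compared types, mural-like cells, the smooth muscle cells and pericytes of vessel walls, were highest, at 13757 CPM in WT against 12878 in the mutant. Schwann-like cells, which wrap peripheral nerve fibres, came next with 11764 and 10776 CPM. Mesenchymal-like cells, the fibroblasts of synovium and capsule, followed with 8373 and 7418 CPM. The order of these 3 types was the same in both libraries, with counting intervals that did not overlap between neighbours. Endothelial-like cells had 6660 CPM in WT against 5869 in the mutant. Granulocyte-monocyte progenitor-like cells, marked by Elane, Prtn3 and Mpo, had 5351 and 5974 CPM, so these neighbours changed places between the libraries. In the mutant the intervals of the pair overlapped, at 5799 to 5939 CPM for endothelial-like cells and 5885 to 6065 CPM for progenitor-like cells. The larger cluster of the progenitor-like type, of 137 WT and 166 mutant cells, also had the monocyte markers F13a1, Ccr2 and Plac8 among its leading genes. Without integration, a separate monocyte-like cluster of 70 WT and 68 mutant cells had 6 of 6 monocyte markers raised. The part of monocytes in the values of the progenitor-like type was not tested. Macrophage-like cells had 4469 and 5219 CPM, neutrophil-like cells 3146 and 3800 CPM, and B lineage-like cells 1373 and 2420 CPM. Stromal, vessel wall and nerve cells were thus above the leukocyte types in WT, and erythroid-like cells stood far below all of them.

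**Figure D1:**
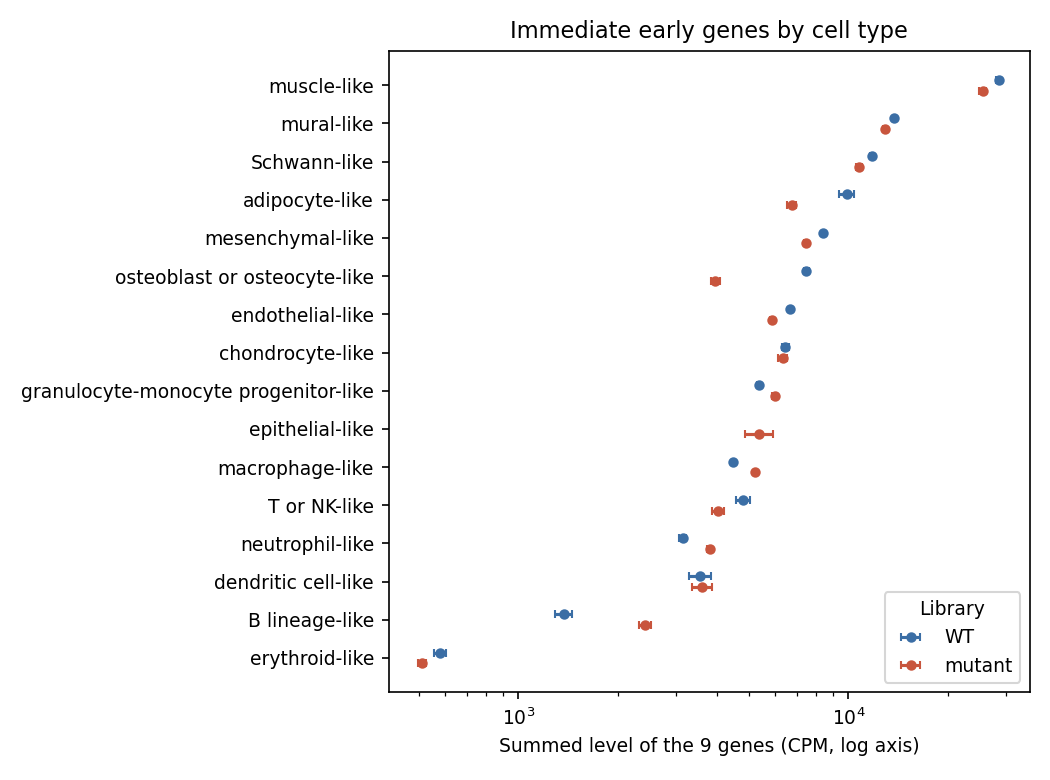
Summed level of the 9 immediate early genes in each cell type, in CPM on a log axis, with 1 point per library and bars for the exact 95% Poisson interval, which covers counting error only. Muscle-like cells are at the right, at 28475 and 25479 CPM, and erythroid-like cells at the left, at 580 and 511 CPM, with epithelial-like cells (20 cells) present only in the mutant.

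The smaller types fitted into the same range. Chondrocyte-like cells (29 and 104 cells) had 6443 CPM in WT against 6318 in the mutant, with overlapping intervals. T or NK-like cells (45 and 83 cells) had 4783 and 4024 CPM, and dendritic-like cells (21 and 24 cells) 3554 and 3592 CPM. Osteoblast or osteocyte-like cells (113 and 50 cells) had 7449 CPM in WT against 3953 in the mutant. One of the 2 clusters behind that last name had only 3 of 8 markers raised, so its identity is the least certain of the types listed.

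Fos, the partner of the Jun proteins in AP-1, was at 4217 CPM in WT against 3751 in mutant Schwann-like cells. Mural-like cells had 4063 and 3450 CPM of Fos, and mesenchymal-like cells 2303 and 1837 CPM. Granulocyte-monocyte progenitor-like cells had 1770 and 1956 CPM, macrophage-like cells 1351 and 1625 CPM, and endothelial-like cells 1299 and 1151 CPM. In WT these 6 types formed the upper group for Fos, and in the mutant neutrophil-like cells came close to endothelial-like cells. Neutrophil-like cells had 804 and 1131 CPM, B lineage-like cells 178 and 519 CPM, and erythroid-like cells 166 and 104 CPM. The muscle-like cluster had the highest Fos of any named type, 8329 and 7487 CPM. Of all UMIs of the 9 genes, Fos supplied 27.9% in WT and 27.1% in the mutant.

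Fosb, a second Fos-family subunit, also differed between types. It was at 1594 and 1609 CPM in mural-like cells, 1379 and 1533 CPM in Schwann-like cells, 1219 and 1058 CPM in mesenchymal-like cells, and 996 and 1004 CPM in endothelial-like cells. Neutrophil-like cells had 106 and 146 CPM of it, and erythroid-like cells 59.4 and 58.6 CPM. Its part in the summed UMIs was 3.38% and 3.84% in neutrophil-like cells and 15.0% and 17.1% in endothelial-like cells.

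Jun, which pairs with Fos or with itself, was at 1749 CPM in WT against 1383 in mutant Schwann-like cells. Mesenchymal-like cells had 1685 and 1323 CPM, mural-like cells 1612 and 1238 CPM, and endothelial-like cells 1417 and 1031 CPM. Myeloid cells had much less of it, with 302 and 324 CPM in macrophage-like cells and 186 and 166 CPM in neutrophil-like cells. Junb, a related subunit that can hold back Jun activity, was spread differently. Mural-like cells had 2006 and 1756 CPM of Junb, Schwann-like cells 1595 and 1545 CPM, macrophage-like cells 1243 and 1297 CPM, and neutrophil-like cells 1085 and 1154 CPM. In neutrophil-like cells Junb made up 34.5% and 30.4% of the UMIs of the 9 genes and Jun 5.90% and 4.38%. In endothelial-like cells the shares were 13.2% and 12.4% for Junb and 21.3% and 17.6% for Jun, so the make-up of the AP-1 genes differed between these types in both libraries.

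Egr1, an activator induced by growth factors and mechanical load, was at 2086 and 2104 CPM in mural-like cells, the highest of the 9 compared types. Schwann-like cells had 1613 and 1509 CPM, mesenchymal-like cells 1224 and 1150 CPM, and endothelial-like cells 1101 and 1033 CPM. Leukocyte types had 328 and 378 CPM in neutrophil-like cells and 90.1 and 179 CPM in B lineage-like cells. Atf3, which in nerve and connective tissue is a known marker of injury, was highest, among the 9 compared types, in mural-like cells at 979.5 and 1148 CPM. Mesenchymal-like cells had 628 and 654 CPM, endothelial-like cells 474 and 479 CPM, and Schwann-like cells 440 and 285 CPM. B lineage-like cells had 16 UMIs of Atf3 in WT and 42 in the mutant, and 68.8% of the WT UMIs came from 1 cell.

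Nr4a1 and Nr4a3, nuclear receptors without a known natural ligand, had an arrangement of their own. Nr4a1 was at 584 and 657 CPM in mural-like cells, 425 and 539 CPM in granulocyte-monocyte progenitor-like cells, and 316 and 315 CPM in Schwann-like cells. Endothelial-like cells had 76.4 and 109 CPM of it, below macrophage-like cells at 127 and 201 CPM, although the summed level was higher in endothelial-like cells. Nr4a3 was at 369 and 465 CPM in mural-like cells, 217 and 309 CPM in macrophage-like cells, and 157 and 349 CPM in granulocyte-monocyte progenitor-like cells. Endothelial-like cells had 32.9 and 38.5 CPM and erythroid-like cells 3.15 and 15.1 CPM. The highest Nr4a3 of any named type was in T or NK-like cells, at 857 CPM (759 to 964) in WT against 708 (642 to 779) in the mutant, where it made up 17.9% and 17.6% of the UMIs of the 9 genes. Schwann-like cells had 170 and 186 CPM of Nr4a3, above neutrophil-like cells at 87.2 and 131 CPM.

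Ier2, a growth factor-induced nuclear protein, was at 464 and 452 CPM in mural-like cells, 389 and 353 CPM in granulocyte-monocyte progenitor-like cells, 382 and 294 CPM in endothelial-like cells, and 288 and 359 CPM in neutrophil-like cells. Macrophage-like cells had 160 and 180 CPM. Chondrocyte-like cells had 627 and 559 CPM, and Ier2 made up 9.73% and 8.85% of their UMIs of the 9 genes.

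**Figure D2:**
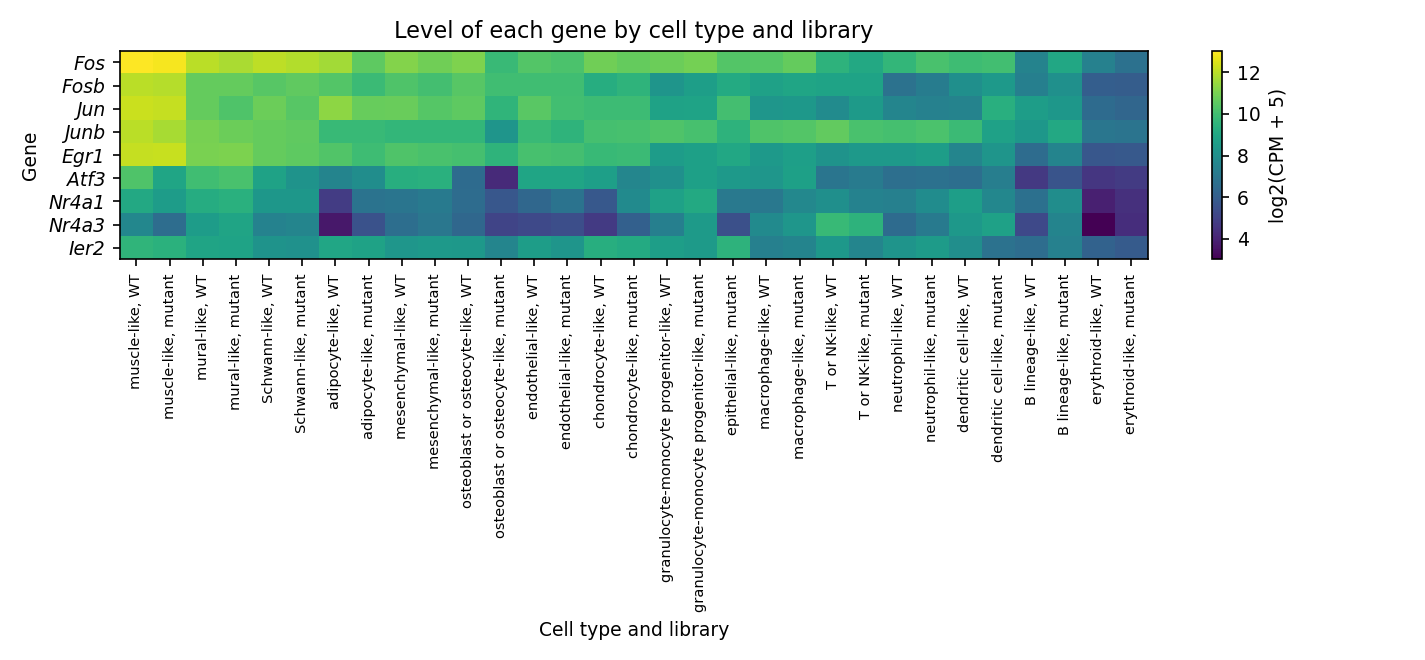
Level of each of the 9 genes in each cell type and library, coloured by log2(CPM + 5). Fos, Fosb, Jun and Egr1 are brightest in muscle-like cells, Junb stays bright into macrophage-like and neutrophil-like cells, and Nr4a3 is brightest in T or NK-like cells.

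**Figure D3:**
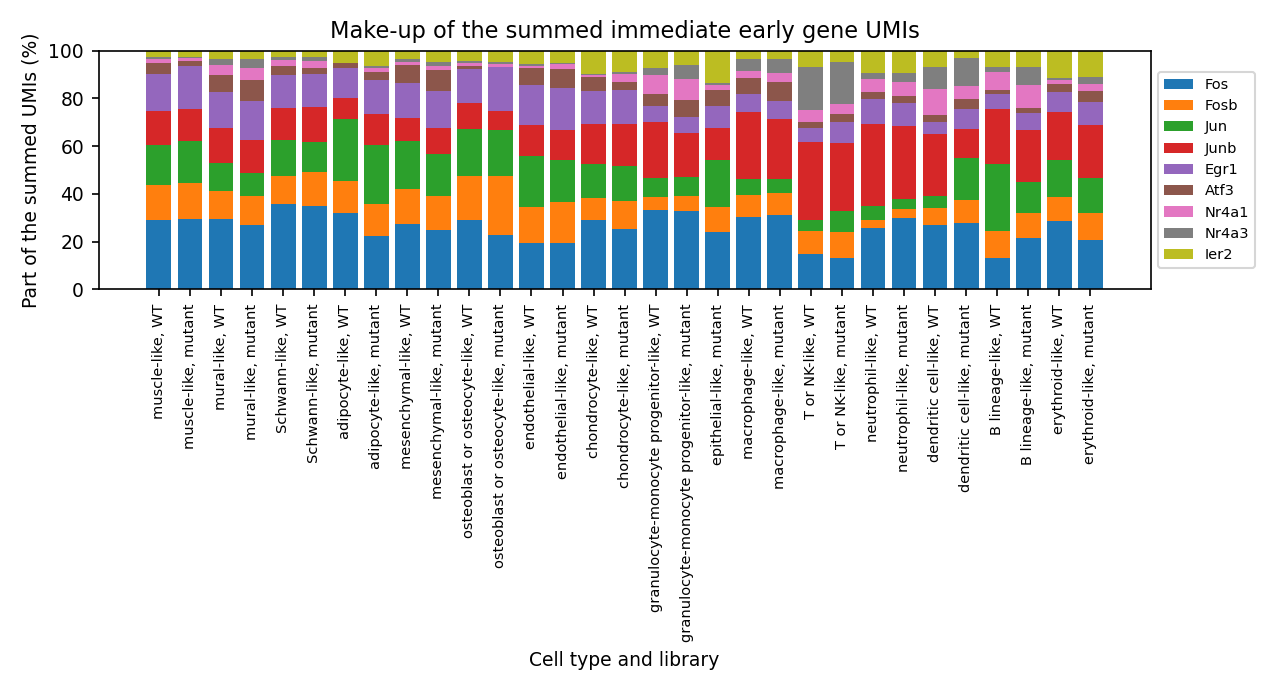
Part of the summed UMIs of the 9 genes that each gene supplied, in percent, by cell type and library. Junb is the largest block in neutrophil-like cells (34.5% and 30.4%) and Nr4a3 reaches 17.9% and 17.6% in T or NK-like cells.

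Clusters within a type could differ by more than the libraries. Neutrophil-like cells fell into a cluster led by Cxcr2 and Retnlg, genes of mature neutrophils, and one led by Camp, Ngp and Ltf, granule genes of immature neutrophils. The mature cluster had 6447 CPM of the 9 genes in WT against 7039 in the mutant, and the immature one 1873 and 2514 CPM. Nr4a3 followed the same order, with 217 and 354 CPM in the mature cluster and 37.2 and 42.5 CPM in the immature one. In B lineage-like cells the cluster led by Vpreb3 and Igll1, genes of B cell precursors, had 1125 and 1623 CPM, and the cluster led by Ms4a1 and Ighd, genes of mature B cells, had 4238 CPM in 12 WT cells against 3730 in 42 mutant cells. The more mature cluster was the higher one in both lineages and both libraries.

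Vessel clusters also differed. Endothelial-like cells led by Gja5 and Sox17, genes of arteries, had 9357 CPM in WT against 9483 in the mutant. Those led by Car4 and Gpihbp1, genes of capillaries, had 5738 and 4330 CPM, and those led by Selp and Sele, genes of inflamed venules, had 6021 and 5024 CPM. In mural-like cells the cluster led by Myh11 and Acta2, genes of smooth muscle, had 15490 and 14592 CPM, and the cluster led by Rgs5, Vtn and Kcnj8, genes of pericytes, had 8767 and 6533 CPM. The arterial and smooth muscle clusters were thus the highest of their types in both libraries. Among macrophage-like cells the cluster led by C1qa and Mrc1 had 6344 and 6506 CPM and the one led by Mmp12 had 3695 and 4269 CPM. A macrophage-like cluster led by Malt1 and St18 had the highest Nr4a3 of that type, at 706 CPM in 48 WT cells against 838 in 102 mutant cells.

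Across the 18 profiles formed by 9 types and 2 libraries, the 9 genes followed each other to different degrees. Pearson correlations of log2(CPM + 5) between pairs of members ran from 0.45 for Nr4a3 and Jun to 0.96 for Jun and Fosb, and Nr4a1 and Nr4a3 had 0.92. Profiles of 1 library share its depth and handling, and the types share lineages, so these values describe the pattern and carry no test. The genes outside all lists whose pattern was most like the summed members were Saraf and Tsen34 (0.96 each), followed by Rsu1, Map7d1, Vapb, Slc4a2, Rabac1, Plec, Slco3a1 and Ripk1 (0.93 to 0.95). Over lists of related genes, the median correlation with the summed members was 0.64 for 17 other immediate early genes, 0.60 for 14 feedback genes, and 0.49 for 10 targets of serum response factor. It was 0.23 for 14 heat shock genes, -0.02 for 14 NF-kappaB early response genes, and 0.27 for all 11641 genes with at least 500 UMIs. It was 0.13 for 8 reference genes and -0.00 for 10 integrated stress response genes, so the other early and feedback genes were the lists closest to the members in pattern.

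The comparison of WT with mutant asks whether loss of 1 Prox1 copy goes with a different early gene level in the inflamed joint. Over all kept cells the summed level was 6298 CPM (6276 to 6321) in WT against 5004 (4985 to 5023) in the mutant, for a log2 ratio of mutant over WT of -0.33 (-0.34 to -0.32). Of the 9 members, 7 were lower in the mutant, from -0.69 for Jun to -0.15 for Atf3, and Nr4a1 and Nr4a3 were higher, at 0.22 and 0.41. None passed a log2 ratio of 1 in either direction, against 4.69% of 16643 genes that were 2-fold higher and 5.32% that were 2-fold lower over the same cells. The mix of cells was not the same, with 1030 endothelial-like and 373 Schwann-like cells in WT against 514 and 161 in the mutant, unnamed clusters left out. In such a pooled value, fewer cells of a type cannot be told apart from less RNA per cell. Within the 9 compared types the summed ratio ran from -0.18 to 0.82, above the pooled value in each. The part of the cell mix in the pooled value was not tested. The 8 reference genes (Gapdh, Eef1a1 and others) had a median of -0.32 over the same cells, and all tested genes a median of -0.08.

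Within cell types the libraries differed in both directions. The summed level was lower in the mutant in 5 of the 9 types and higher in 4, and in none did it reach a 2-fold difference. B lineage-like cells had the largest difference, a log2 ratio of 0.82 (0.71 to 0.92), followed by neutrophil-like cells at 0.27 (0.23 to 0.31), macrophage-like cells at 0.22 (0.21 to 0.24) and granulocyte-monocyte progenitor-like cells at 0.16 (0.13 to 0.19). Erythroid-like and endothelial-like cells had -0.18 each, mesenchymal-like cells -0.17, Schwann-like cells -0.13 and mural-like cells -0.10. Of the compared types, the leukocyte types were the higher ones and the stromal, vessel, nerve and red cell types the lower ones. Leukocyte types too small to be compared did not share that direction. T or NK-like cells had -0.25 (-0.34 to -0.16) and dendritic-like cells 0.02 (-0.14 to 0.17). A shift in the median of all tested genes above 0.1 was present in a pair of compared types. It was 0.22 in macrophage-like cells, where 69.9% of 11320 genes were higher in the mutant, and 0.16 in erythroid-like cells. Relative to that shift the summed level of macrophage-like cells differed by 0.01 and that of erythroid-like cells by -0.34. With suspected doublets removed the macrophage-like value was -0.04 and the erythroid-like value 0.41, both opposite in direction to the main result. Without integration and with doublets kept, the macrophage-like value was -0.03 as well. Under both settings the cluster led by Mmp12 was named osteoclast-like and left the macrophage-like type. The part of doublets in these reversals was not tested.

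Of the 81 pairs of a member and a compared type, 52 were higher in the mutant and 29 lower, where between 43.3% and 69.9% of all tested genes were higher, depending on the type. A log2 ratio of at least 1 was reached in 6 pairs, all higher in the mutant, and the range over the 81 pairs was -0.67 to 2.48. Pairs 2-fold lower in the mutant appeared under other settings, among them Fos and Atf3 in erythroid-like cells without integration (-1.52 and -1.19). B lineage-like cells supplied 4 of the 6, Fos, Atf3, Nr4a1 and Nr4a3, where 7.81% of 5619 tested genes were 2-fold higher and 4.63% 2-fold lower. Erythroid-like cells supplied Nr4a3, where 4.57% of 8914 genes were 2-fold higher and 2.97% lower. Granulocyte-monocyte progenitor-like cells supplied Nr4a3 as well, where 3.66% of 8800 genes were 2-fold higher and 1.3% lower. In the other 6 types no member passed. The background there was 2.12% higher and 5.08% lower in Schwann-like cells, 2.04% and 1.79% in endothelial-like cells, 6.42% and 1.49% in macrophage-like cells, 3.37% and 3.06% in mesenchymal-like cells, 1.24% and 2.39% in mural-like cells, and 2.73% and 2.75% in neutrophil-like cells. Marker gates on single cells in place of clusters gave 2 pairs, Nr4a1 and Nr4a3 in erythroid-like cells. Under the gates 7 types were compared, without B lineage-like and granulocyte-monocyte progenitor-like cells, so the pairs of those types were not measured there. A minimum of 200 UMIs for a gene left 3. Without the cell with most UMIs of the 9 genes in each type and library, 5 pairs passed, and Atf3 in B lineage-like cells had too few UMIs left for a ratio.

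**Figure D4:**
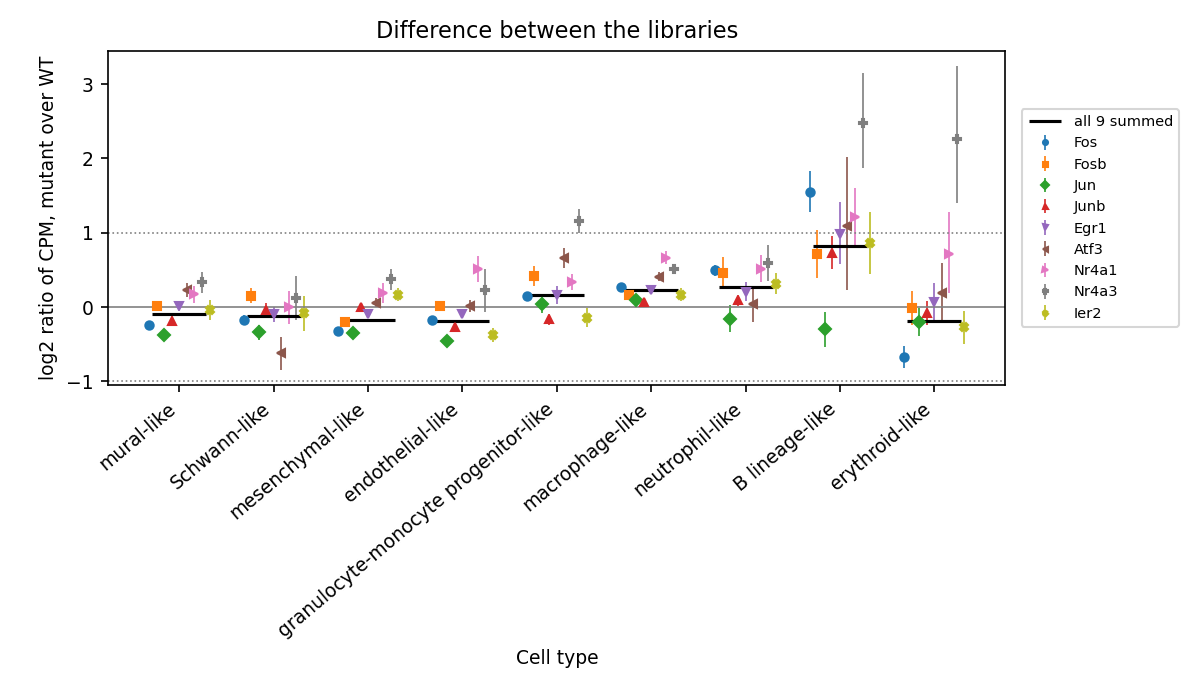
Log2 ratio of CPM, mutant over WT, for each of the 9 genes (symbols) and their sum (black bars) in the 9 compared cell types, with vertical lines for the 95% counting interval and dotted lines at a 2-fold difference. Nr4a3 is above 0 in all 9 types and reaches 2.48 in B lineage-like cells, and Jun is below 0 in 7 of 9.

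Nr4a3 was higher in the mutant in 9 of 9 types, where between 43.3% and 69.9% of all tested genes were higher, depending on the type. The 9 types came from the same 2 libraries, and how many of all genes were higher in each of them was not counted. In B lineage-like cells Nr4a3 had 25 UMIs, 32.2 CPM (20.8 to 47.5), in WT and 172 UMIs, 180 CPM (154 to 209), in the mutant, for a log2 ratio of 2.48 (1.87 to 3.15). In erythroid-like cells it had 12 UMIs in WT and 133 in the mutant, a ratio of 2.26 (1.40 to 3.25). In granulocyte-monocyte progenitor-like cells it had 448 and 999 UMIs, a ratio of 1.15 (0.99 to 1.32). The other ratios were 0.59 in neutrophil-like cells, 0.51 in macrophage-like cells, 0.37 in mesenchymal-like cells, 0.33 in mural-like cells, and 0.23 and 0.13, both with intervals across 0, in endothelial-like and Schwann-like cells. Centring each type on its own median left the count at 9 of 9, and so did leaving mitochondrial, haemoglobin and member UMIs out of the total. Among 13 named clusters with at least 50 cells in each library and enough UMIs, Nr4a3 was higher in 11. The exceptions included the capillary-type endothelial cluster, with 27.7 CPM in WT against 13.9 in the mutant. In the types too small to be compared the direction was not shared, with log2 ratios of -1.44 (-2.08 to -0.85) in osteoblast or osteocyte-like, -1.10 (-1.81 to -0.45) in muscle-like, -0.27 (-0.50 to -0.05) in T or NK-like, 0.38 (-0.10 to 0.87) in dendritic-like and 1.55 (0.73 to 2.42) in chondrocyte-like cells.

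Nr4a1 was higher in the mutant in 8 of 9 types, with log2 ratios up to 1.22 (0.84 to 1.60) in B lineage-like cells, and was even in Schwann-like cells (315.9 CPM in WT against 315.1 in the mutant, -0.00). When cells needed 1000 genes and a mitochondrial share below 5%, Nr4a1 was lower in 2 of 7 types, down to -0.99. Types too small to be compared did not all share the direction. Nr4a1 was lower in dendritic-like (-0.98), osteoblast or osteocyte-like (-0.88), T or NK-like (-0.54) and muscle-like cells (-0.51), with intervals below 0. It was higher in chondrocyte-like (2.12) and adipocyte-like cells (2.25), the latter with 3 UMIs in WT. In the main result Atf3 was higher in 8 of 9 types and Fosb in 7 of 9, and with the centred ratios these counts were 7 and 5. Among the higher ratios, those of Atf3 in endothelial-like, neutrophil-like, mesenchymal-like and erythroid-like cells had intervals across 0. So did those of Fosb in endothelial-like and mural-like cells. The exception for Atf3 was Schwann-like cells, with 803 UMIs in WT and 221 in the mutant, a ratio of -0.62 (-0.84 to -0.41). Jun went the other way and was lower in the mutant in 7 of 9 types, by -0.46 (-0.51 to -0.41) in endothelial-like cells, -0.38 in mural-like cells, -0.35 in mesenchymal-like cells and -0.34 in Schwann-like cells. The reference genes had medians of -0.38, -0.24, -0.19 and -0.33 in these 4 types. With centred ratios Jun was lower in 9 of 9 types, and without integration in 9 of 10. With marker gates Jun was lower in 4 of 7 types. With doublets removed it was lower in 7 of 9, and its highest ratio was 0.43. The main ratio of Jun in neutrophil-like cells, -0.16 (-0.34 to 0.02), had an interval across 0. In types too small to be compared Jun was higher in T or NK-like (0.63, 0.25 to 1.04) and dendritic-like cells (1.85, 1.29 to 2.45). It was lower in adipocyte-like (-0.62) and osteoblast or osteocyte-like cells (-0.95). Muscle-like (-0.08) and chondrocyte-like cells (-0.01) had intervals across 0. Jun was the one member lower in B lineage-like cells, with 299 UMIs in each library and a ratio of -0.30 (-0.54 to -0.06), while Fos there had 138 and 497 UMIs and a ratio of 1.55 (1.27 to 1.83). Fos, Junb and Ier2 were higher in 4 types and lower in 5, and Egr1 was higher in 6.

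The make-up of a type moved with some of these differences. In B lineage-like cells the mature cluster held 12 of 147 WT cells and 42 of 138 mutant cells, and a further cluster of 18 cells was present only in the mutant. Within the precursor cluster alone the summed ratio was 0.53 (0.39 to 0.67), with Fos at 127 CPM in WT against 337 in the mutant and Nr4a3 at 18.2 and 74.8 CPM. Both genes were above a log2 ratio of 1 within that cluster as well, at 1.40 and 2.04. In erythroid-like cells the 2 clusters large enough in both libraries had summed ratios of -1.24 (-1.37 to -1.11) and -0.50 (-0.71 to -0.30), both further below 0 than the type as a whole. Another cluster with the higher level of 1359 CPM in WT against 1210 in the mutant held 21 WT and 146 mutant cells. Fos in the first of these clusters was at 157 CPM in WT against 36.0 in the mutant. In mesenchymal-like cells a cluster of 10 WT and 224 mutant cells, at 2543 and 4087 CPM, was below the rest of its type. That cluster had 5 of 8 mesenchymal markers raised and a median of 2327.5 UMIs per cell. Its leading genes held the antibody genes Igha and Igkc and the haemoglobin gene Hba-a2 beside the marker Mfap5. Without the clusters that had under 20 cells in a library the mesenchymal-like ratio was -0.11. The part of cell mixture in the values of whole types was not tested beyond these numbers.

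The share of cells with a UMI depends on depth, so each cell was also thinned to 2000 UMIs at random, which left out 509 WT and 1269 mutant cells with fewer. At that depth 69.0% (67.5 to 70.5) of WT cells and 65.0% (63.6 to 66.4) of mutant cells held at least 3 of the 9 genes, a difference of -3.99 percentage points (-6.01 to -1.97). Without thinning the shares were 77.1% and 75.9%, and they were 74.9% and 71.0% in endothelial-like, 46.9% and 67.4% in B lineage-like and 20.1% and 28.0% in erythroid-like cells. Endothelial-like cells had the largest negative difference among the compared types, with 67.3% of WT and 56.0% of mutant cells, -11.2 points (-16.4 to -6.02). The unnamed shallow clusters with endothelial markers, at medians of 1373 and 1499 UMIs per cell, were not part of that value. B lineage-like cells had the positive one, with 29.4% and 44.6%, 15.2 points (2.78 to 27.1). In the other 7 types the interval of the difference included 0, with shares of 85.4% and 86.0% in granulocyte-monocyte progenitor-like, 83.1% and 86.3% in macrophage-like and 81.5% and 80.6% in mesenchymal-like cells. Erythroid-like cells, the type lowest in these genes, held at least 3 of them in 6.07% of WT and 9.64% of mutant cells, at median depths of 9177 and 9001 UMIs. The other types were well above that level.

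**Figure D5:**
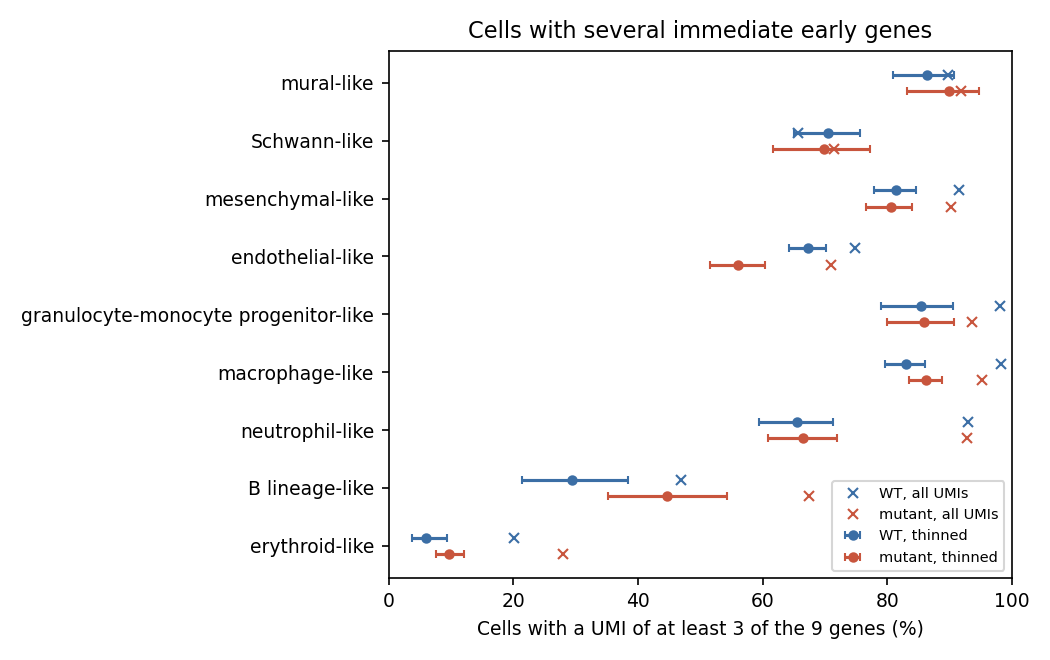
Percent of cells with a UMI of at least 3 of the 9 genes, by cell type and library, for cells thinned to 2000 UMIs (circles, bars for the exact 95% binomial interval) and for all UMIs (crosses). The thinned intervals of WT and mutant are apart, among the compared types, only in endothelial-like cells, at 67.3% and 56.0%, and erythroid-like cells lie at 6.07% and 9.64%.

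Cells of 1 type were not alike. In thinned Schwann-like cells the 10th percentile was 0 UMIs of the 9 genes in WT and 1 in the mutant, the median 23 and 22.5, and the 90th percentile 56.2 and 49. None of the 9 genes was found in 13.3% of WT and 8.90% of mutant Schwann-like cells, 13.8% and 17.7% of endothelial-like cells, and 0.72% and 0.73% of macrophage-like cells. In WT Schwann-like cells, 231 cells with a Fos UMI held Jun in 87.0%, Egr1 in 83.5% and Junb in 84.8%. The 78 cells without a Fos UMI held them in 14.1%, 7.69% and 19.2%. Mutant Schwann-like cells gave 79.8% against 32.4% for Jun and 80.7% against 16.2% for Egr1. Schwann-like cells with Fos thus held the other genes far more often than those without. In WT macrophage-like cells the shares with and without Fos were 44.4% and 21.6% for Egr1, 45.1% and 29.5% for Jun and 85.5% and 79.5% for Junb. In the mutant they were 40.9% and 26.1% for Egr1, 45.6% and 38.6% for Jun and 83.1% and 72.7% for Junb. Neutrophil-like cells with Fos held Junb in 79.7% of WT and 79.9% of mutant cells, and those without Fos in 63.4% and 51.2%. Jun was in 29.7% of WT neutrophil-like cells with Fos and 29.3% without, and in 16.4% and 32.9% in the mutant.

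Mitochondrial share and depth moved with the level in some types. In WT Schwann-like cells the summed level was 13562 CPM at mitochondrial shares of 1 to 2%, 13586 CPM at 2 to 5% and 7140 CPM at 5 to 10%. WT Schwann-like cells under 2000 UMIs had 4115 CPM. In endothelial-like cells with a mitochondrial share under 1% the level was 6840 CPM in WT against 5145 in the mutant, and at 1 to 2% it was 7374 and 8084 CPM. At 2 to 5% it was 5939 and 5011 CPM, so the mutant was the lower library in the lowest and the highest of these 3 bands and the higher one between them. Mesenchymal-like cells had 10818 and 9045 CPM at 1 to 2% and 5683 and 6430 CPM at 5 to 10%. Barcodes left out for under 500 genes had 394 CPM in WT against 292 in the mutant, and those left out for mitochondrial share had 5052 and 3800 CPM. Their part in the differences between the libraries was not tested.

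Related lists give the setting in which the 9 genes were measured. Of 18 other immediate early genes, all with at least 50 UMIs over all kept cells, 2 were higher in the mutant and 16 lower, with a median log2 ratio of -0.25 and 1 gene past 2-fold. Klf10 and Fosl1 were the highest, at 0.45 and 0.39, and Ccn2 and Ccn1, matricellular proteins induced by stretch, the lowest, at -1.10 and -0.97. Of 14 feedback genes, which dampen the response, 5 were higher and 9 lower, with a median of -0.22, from Btg1 (0.42) and Dusp5 (0.39) to Spry2 (-0.73) and Socs3 (-0.51). All 14 heat shock genes were measured and 13 were lower, with a median of -0.25, and the inducible chaperones Hspa1a and Hspa1b were at -1.30 and -1.35. Hspd1 and Hsp90aa1 were at the other end, at 0.03 and -0.02. Of the heat shock genes, 14 of 14 were lower in the mutant in endothelial-like cells (4845 CPM summed in WT against 3391 in the mutant) and in Schwann-like cells (3094 and 2486 CPM). Of all tested genes, 54.1% were higher in endothelial-like and 50.9% in Schwann-like cells. The heat shock medians there were -0.47 and -0.40. Reference genes had medians of -0.38 and -0.33 in the same types, with 6 of 8 and 6 of 7 lower.

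Of 14 NF-kappaB early response genes, 8 were higher in the mutant and 6 lower, with a median of 0.16. Nfkbid (0.61) and Rel (0.51), a regulator and a subunit of the factor itself, were the highest, and the chemokines Ccl3 (-0.33) and Cxcl2 (-0.20) the lowest. Of 12 targets of serum response factor and its MRTF partner, 3 were higher and 9 lower, with a median of -0.12, from Flna (0.28) and Fhl2 (0.09) to the smooth muscle genes Tagln (-0.69) and Acta2 (-0.50). Of 12 integrated stress response genes, 3 were higher and 9 lower, with a median of -0.25, from Sesn2 (0.14) and Slc7a11 (0.06) to Ddit4 (-1.47) and Trib3 (-1.07), and 3 were past 2-fold. The 8 reference genes gave 2 higher and 6 lower, from Ywhaz and Tbp (0.08 each) to Ppia (-0.48) and Rplp0 (-0.45). The medians of all lists but the NF-kappaB list were thus below 0 over all kept cells, like that of the reference genes.

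The lists did not follow the members within each type. In neutrophil-like cells, where 52.2% of all genes were higher in the mutant, 8 of 9 members were higher, with a median of 0.32, while 9 of 14 other immediate early genes and 8 of 14 NF-kappaB genes were lower. In macrophage-like cells 9 of 9 members were higher, with a median of 0.23 against 0.22 over all genes, and 12 of 14 NF-kappaB genes were higher. In B lineage-like cells 8 of 9 members, 9 of 11 other immediate early genes and 8 of 10 NF-kappaB genes that could be tested were higher, where 43.3% of all genes were higher and the reference genes had a median of -0.45. In granulocyte-monocyte progenitor-like cells, where 55.0% of all genes were higher, 7 of 9 members were higher, while 12 of 14 NF-kappaB genes were lower, with a median of -0.45.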

How the data were processed

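The 9 genes, the gene lists and the cell type markers were chosen with earlier results of these data known. Per the labels, the tissue was kept at 37 °C for 30 minutes in collagenase type I (3 mg/ml) with Dispase II (at 4 mg/ml). The study's methods give another collagenase, other concentrations and times and a DNase step, and a different kit version, so the digestion behind these libraries is uncertain. The authors deposited UMI counts per gene and barcode, made against mm10, and the submitters' processing notes name Cell Ranger 7.0.1. No column of per-sample values went unused.

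Kept barcodes had 500 genes or more and a mitochondrial share below 10%. Clusters were made in R 4.3.3 (sctransform 0.4.2, Seurat 5.3.0), with anchor integration of the 2 libraries, 200 components and resolution 1.5, and without the listed genes. A cluster was called X-like where at least 3 markers of the type had a CPM ratio of at least 2 to the other cells (5 CPM added) and were found in at least 10% of cells. The rule that separates types of 1 lineage, and the rules that left a cluster unnamed, were set after clusters were seen. Doublets stayed in the main result. An alternative removed the 239 WT and 462 mutant barcodes with the highest Scrublet scores (scanpy 1.11.5, Python 3.11.15). The automatic threshold of Scrublet called none, so these numbers were set by a preset rate of 0.008 for every 1000 barcodes scored.

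Levels are CPM over the summed cells with exact Poisson intervals, ratios have exact conditional binomial intervals, and shares have Clopper-Pearson and their differences Newcombe intervals, all at 95% (scipy 1.17.1). A ratio needed 50 UMIs over both libraries and, within types, 100 cells in each. Shares were compared after thinning each cell to 2000 UMIs. UMI counts of transcript ends are not scaled by length. Named genes outside the members were the 2 highest and 2 lowest ratios of each list over all kept cells and the 10 genes most like the summed members in pattern. The statistics were tested on simulated data, with ratios from Poisson counts as the intervals assume. That test does not cover UMIs that are concentrated in a few cells.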

Additional observations from a re-analysis of the deposited data

Results flagged for a closer look

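The log2 ratio of the summed 9 genes, mutant over WT, pointed in opposite directions in different cell types. It was 0.82 in B lineage-like, 0.27 in neutrophil-like, 0.22 in macrophage-like and 0.16 in granulocyte-monocyte progenitor-like cells. It was -0.18 in both endothelial-like and erythroid-like cells, -0.17 in mesenchymal-like, -0.13 in Schwann-like and -0.10 in mural-like cells. Each condition was 1 library, so the difference between types was not tested.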

How the results depend on the processing

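No paired analysis was possible because each condition was 1 library, and leaving out a replicate was not possible for the same reason. The summed level over all kept cells, -0.33, was lower in the mutant under every alternative run. It was -0.41 when the cell filter was loosened to 200 genes and 20% mitochondrial UMIs, -0.34 with doublets removed, -0.26 with mitochondrial, haemoglobin and member UMIs left out of the total, and -0.25 when centred on the median of all genes. The difference in cells with at least 3 members, -3.99 percentage points, was -9.38 with the looser cell filter, -6.84 and -7.70 after thinning to 1000 and 4000 UMIs, -1.18 without thinning, -1.05 for at least 1 member and -9.20 for at least 5. The 6 pairs past 2-fold became 2 with marker gates on single cells. Those gates compared 7 types, without B lineage-like and granulocyte-monocyte progenitor-like cells. The count was 3 with a minimum of 200 UMIs and 10 with types of at least 50 cells. The 4 pairs added there (Fos, Junb, Atf3 and Nr4a3 in osteoblast or osteocyte-like cells) were lower in the mutant. For that type the share of all genes past 2-fold was not computed. The pairs past 2-fold were 9, of which 4 lower in erythroid-like cells, with a filter of 1000 genes and 5%, and 8, of which 2 lower, without integration. Of alternatives chosen after seeing the data, leaving out clusters of under 20 cells in 1 library gave 4, and named clusters with at least 50 cells gave 12 pairs, of which 6 lower. The direction was reversed in erythroid-like cells with doublets removed (0.41) and with marker gates (0.16), and in macrophage-like cells with doublets removed (-0.0389) and without integration (-0.0274). The erythroid-like ratio ran from -0.93 to 0.41 over the alternatives. With doublets removed, and also without integration, the cluster led by Mmp12, macrophage-like in the main result, met the rule for osteoclast-like cells. It left the macrophage-like type there, and the other causes were not tested. Nr4a3 was higher in the mutant in every compared type under the alternatives run on types, except 1 of 7 types when cells needed 1000 genes and less than 5% mitochondrial UMIs, where its lowest ratio was -0.12, and osteoblast or osteocyte-like cells (-1.44), which enter with types of at least 50 cells. The ratio of B lineage-like cells ran from 0.53 to 0.92. Depth limits Nr4a3 and Atf3 in B lineage-like and erythroid-like cells, where WT had 12 to 25 UMIs of Nr4a3.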

Other observations

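The cell types too small for the comparison held the extremes of several members. In muscle-like cells Jun was at 4750 CPM in WT against 4494 in the mutant, and Egr1, at 4498 and 4661 CPM, was of like size in both. Atf3 was at 1244 CPM in WT against 475 in mutant muscle-like cells, a log2 ratio of -1.39 (-1.68 to -1.11). After thinning to 2000 UMIs the median muscle-like cell held 62 UMIs of the 9 genes in WT and 50 in the mutant, and 98.8% and 94.3% of cells held at least 3 of the genes. The cells numbered 90 and 35, and no replicate error can be given.

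In osteoblast or osteocyte-like cells all 9 members were lower in the mutant. The log2 ratios ran from -2.70 (-3.64 to -1.88) for Atf3 to -0.47 (-0.58 to -0.36) for Fosb. Between them were -1.44 for Nr4a3, -1.42 for Junb and -1.27 for Fos. The median of all tested genes there was -0.01, and the share of all genes lower or past 2-fold was not computed. This type joined a cluster of 85 WT and 29 mutant cells with one of 28 and 21. The larger cluster had 3 of 8 markers raised, none of them among its leading genes, and its 8 markers had a mean CPM ratio of 0.63 to the other cells. The mix of the 2 clusters differed between the libraries, and its part in these ratios was not tested. Chondrocyte-like cells had Nr4a1 at a log2 ratio of 2.12 (1.62 to 2.63) with 29 WT and 104 mutant cells, whose median depths were 32750 and 3350.5 UMIs.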
